A study of Mus musculus with 6 samples.

Results

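The Hippo pathway genes of lineage choice were followed in mouse blastocysts that had been cultured with vesicles from human Fallopian tubes. The members were the rows of the deposited expression table whose Ensembl identifiers map to the symbols *Yap1*, *Wwtr1*, *Lats1*, *Lats2*, *Stk3*, *Sav1*, *Nf2*, *Amot*, *Amotl1* and *Amotl2*, and all 10 were found among the 55774 genes of the table. The 6 libraries came from wild-type (WT) ICR embryos, recovered at the two-cell stage and grown to blastocysts in CZB medium with added vesicles. In 3 libraries the vesicles came from women with endometriosis (oEV-EMT), and in the other 3 from women without it (oEV-ctrl), for whom the sample labels give uterine fibroids and the methods cervical intraepithelial neoplasia. Each library pooled 10 blastocysts, whose sexes the labels do not give, so a value is an average over embryos and over trophectoderm and inner cells. Fewer cells of a type and less RNA per cell cannot be told apart in such pools. The labels do not say whether the 3 libraries of a group came from separate cultures, and the p-values then measure only the spread between libraries, which may be technical.

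The Hippo pathway is a kinase cascade that holds the coactivators YAP1 and TAZ out of the nucleus. STK3 and its relative STK4, with the scaffold SAV1, activate the kinases LATS1 and LATS2, which phosphorylate YAP1 and TAZ. In the mouse embryo the outer, polarised cells keep this cascade silent, YAP1 enters the nucleus with the DNA-binding protein TEAD4, and trophectoderm genes such as *Cdx2* and *Gata3* are switched on. In the inner cells angiomotin, together with NF2 (merlin), activates LATS at the cell junctions, and YAP1 stays in the cytoplasm. The pathway acts largely through phosphorylation and localisation of proteins, which RNA levels do not show.

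TEAD proteins bind the letters GGAATG, which read CATTCC on the other strand. These letters were searched for on both strands in the RefSeq windows of GRCm38.p6 that reach from 250 bases before to 50 after a gene's start. Windows were found for 9 of the 10 genes, and 5 of the 9 held a match, as did 6 of their 12 windows. Over all 32851 windows the share was 14.7%, and 4481 of all 27025 genes held a match. The windows of *Wwtr1* overlap and hold the same match, which is counted for each of them. *Lats2* has another window, which held 0 matches. The starts are those of RefSeq, and for *Lats2* and *Amotl2* they lie inside the GENCODE spans given below. The windows of *Lats1*, *Nf2*, *Amot* and *Amotl1* held 0 matches. The stretches around the matches are shown, 5′ to 3′ on the strand of the gene and with the TEAD letters in capitals. They come from the effectors, a kinase, the scaffold and an angiomotin of the pathway. The last line gives *Ccn1*, a much used readout of YAP1, for comparison.
*Yap1* (chr9:8004722-8004747, minus strand, 141 bases before the start): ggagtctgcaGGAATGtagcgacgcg
*Wwtr1* (chr3:57576031-57576056, minus strand, 136 or 170 bases before its annotated starts): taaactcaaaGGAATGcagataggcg
*Lats2* (chr14:57746104-57746129, minus strand, 4 bases after the start): tgacgcccgtGGAATGccaacaatgt
*Sav1* (chr12:69987093-69987118, minus strand, 106 bases before the start): gctttcccagCATTCCcagcggcgcg
*Amotl2* (chr9:102717729-102717754, plus strand, 65 bases before the start): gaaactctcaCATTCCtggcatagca
*Ccn1* (chr3:145650073-145650098, minus strand, 103 bases before the start): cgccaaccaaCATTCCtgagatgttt

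*Amotl2* and *Ccn1* are the pair of these genes whose RNA lay higher in every oEV-EMT library, as in 18.1% of all tested genes. *Sav1*, which was not tested, lay lower in every oEV-EMT library, as did 4.34% of all tested genes. *Yap1*, *Wwtr1* and *Lats2* overlapped between the groups. The pair was picked by these values, and the 150 bases before their RefSeq starts are printed in full, with the capitals marking the same letters. A match of letters is a description of the sequence and does not show that TEAD4 is bound there.
*Amotl2* (chr9:102717654-102717803, plus strand): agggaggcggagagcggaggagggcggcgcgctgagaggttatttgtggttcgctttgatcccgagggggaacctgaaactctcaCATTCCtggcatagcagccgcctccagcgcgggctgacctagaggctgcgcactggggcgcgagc
*Ccn1* (chr3:145649986-145650135, minus strand): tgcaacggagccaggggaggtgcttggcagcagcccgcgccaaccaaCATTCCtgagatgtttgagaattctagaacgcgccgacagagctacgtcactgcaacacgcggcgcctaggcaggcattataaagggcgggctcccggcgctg

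The libraries were first checked against markers. Keratins of trophectoderm were abundant, with *Krt8* between 938 and 1491 FPKM (fragments per kilobase of transcript, scaled to the fragments of the library), and all 10 markers of the inner cell mass and all 10 of primitive endoderm were abundant enough to be tested by the filter given next. Markers of cumulus or granulosa cells summed to between 1.81 and 3.42 FPKM, with 8 of 10 below 1 FPKM in every library and *Fshr* and *Cyp19a1* listed at 0 throughout. Oocyte markers summed to between 4.73 and 8.10 FPKM in oEV-EMT and between 2.98 and 4.06 in oEV-ctrl, without overlap, with 7 of 10 below 1 FPKM in every library. Of the 2 abundant enough to be tested, the zona pellucida gene *Zp3* had the larger log2 fold change, 0.79 against 0.50. It was named after its values were seen. The origin of these marker signals and their part in the results were not tested. Of the oviduct markers, 9 of 10 were below 1 FPKM in every library, the exception being *Epcam*, which embryonic epithelium also expresses. Tests were limited to the 11924 genes that reached 1 FPKM in 3 or more libraries, and differences are given as log2 fold changes of FPKM + 1, oEV-EMT minus oEV-ctrl. The median over all tested genes was 0.17 on this scale, so a value near 0.17 is where the typical gene lay. A single unannotated entry took between 15.3% and 31.5% of the FPKM of a library, and the read totals behind the values are unknown.

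FPKM are scaled by transcript length, so that levels can be compared between genes. *Wwtr1*, which encodes TAZ, had the highest level of the 10 genes at 8.86 ± 1.23 FPKM (SD over 6 libraries), and *Yap1* followed at 7.57 ± 1.38. The upstream kinase *Stk3* had 6.44 ± 1.14, *Amotl2* 5.81 ± 2.62, *Amot* 4.69 ± 2.94, *Lats2* 4.22 ± 0.825 and *Nf2* 3.02 ± 0.549. These 7 genes lay between the 26.5th and the 53.1st percentile of the tested genes and formed a graded series, in which the ranges of every neighbouring pair overlapped. *Yap1* nevertheless stood above *Stk3* within each of the 6 libraries, and *Wwtr1* above *Yap1* in 5 of 6. Below them the levels fell in steps that did not overlap, to 0.871 ± 0.406 FPKM for *Sav1*, 0.236 ± 0.0502 for *Lats1* and 0.0764 ± 0.0393 for *Amotl1*. Of the related pairs, *Lats2* thus far exceeded *Lats1*, and *Amot* and *Amotl2* far exceeded *Amotl1*, in the blastocyst RNA of both groups.

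**Figure D1:**
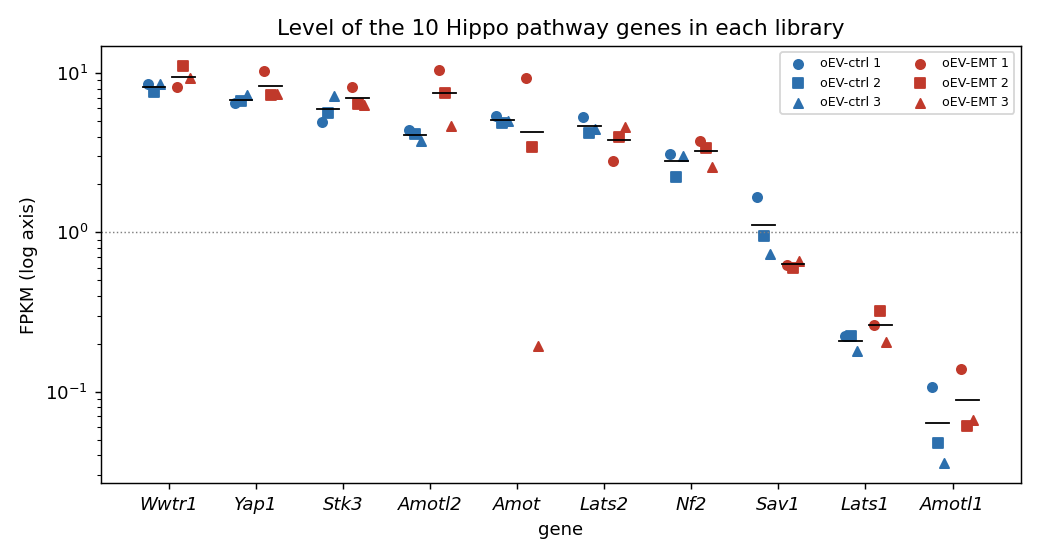
FPKM (log axis) of the 10 Hippo pathway genes in each library, ordered by their mean level, with oEV-ctrl in blue, oEV-EMT in red, a symbol for each library number, black bars for group means and a dotted line at 1 FPKM. *Amotl2* lies higher in all 3 oEV-EMT libraries, *Sav1* lies lower in them, and *Amot* drops to 0.195 FPKM in oEV-EMT 3. Of all tested genes, 18.1% lie higher and 4.34% lower in oEV-EMT without overlap.

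Of the 10 genes, 7 passed the filter, and 0 of the 7 met both thresholds of the study's methods, an adjusted p no higher than 0.05 and a log2 fold change of 1 or more in either direction (limma with Benjamini-Hochberg adjustment). Over all genes this was 0 of 11924, a share of 0%, while 1831 had an unadjusted p of 0.05 or less, 104 met both thresholds with library weights and 21 with a replicate block. The study applied the thresholds with DESeq2. Here they were applied to log2 fold changes of FPKM + 1, which understate the change of low genes, so these counts do not repeat the study's own test. At an unadjusted p of 0.05 or less, 1 of the 7 was called, *Amotl2*, against 15.4% of all tested genes. It was called higher in oEV-EMT, against 12.8%, and 0 of the 7 were called lower, against 2.55%. In *Amotl2* alone of the 7 the groups did not overlap, as was the case in 22.4% of all tested genes, 18.1% with oEV-EMT above and 4.34% with it below. The fold change was above 0 in 5 of the 7 against 70.1% of all genes, and the highest value was in an oEV-EMT library in 6 of the 7 against 75.4%. The counts of the Hippo genes therefore lie near the background. The median of their log2 fold changes was 0.18, which is 0.01 once the median of all tested genes is subtracted, with 4 genes above it and 3 below.

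The effectors differed little between the groups. *Yap1* (ENSMUSG00000053110; chromosome 9, 7931999 to 8004596, minus strand) stood at 10.3, 7.25 and 7.42 FPKM in oEV-EMT and at 6.49, 6.72 and 7.25 in oEV-ctrl. The high value was that of oEV-EMT 1, and the groups overlapped. The log2 fold change was 0.24 with a 95% interval from -0.25 to 0.73 (limma, adjusted p = 0.635), 0.07 relative to all genes. *Wwtr1* (ENSMUSG00000027803; chromosome 3, 57455649 to 57575910, minus strand) had 8.18, 11.1 and 9.27 FPKM in oEV-EMT and 8.54, 7.59 and 8.49 in oEV-ctrl, and here oEV-EMT 1 was the lowest of its group. Its log2 fold change was 0.18 (95% interval -0.29 to 0.66, adjusted p = 0.708). An increase in either effector of 1 on the log2 scale lies outside these intervals. The coordinates are those of GRCm38 in GENCODE M21.

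Among the kinases and their scaffold, *Lats2* (ENSMUSG00000021959; chromosome 14, 57689662 to 57758388, minus strand) had 2.82, 3.96 and 4.57 FPKM in oEV-EMT and 5.32, 4.23 and 4.44 in oEV-ctrl. The lowest value was again in oEV-EMT 1 and the ranges overlapped. Its log2 fold change was -0.26 (95% interval -0.77 to 0.26, adjusted p = 0.625 from limma), or -0.43 relative to all genes. An annotated gene on the same strand, *Gm49361*, covers 42.4% of the exonic bases of *Lats2* and is listed at 0 in every library, so the level of *Lats2* depends on how the authors' program divided those reads. *Stk3* (MST2; ENSMUSG00000022329; chromosome 15, 34875496 to 35178921, minus strand) had 8.19, 6.41 and 6.27 FPKM in oEV-EMT and 4.95, 5.64 and 7.20 in oEV-ctrl. The groups overlapped, and the log2 fold change was 0.20 (95% interval -0.30 to 0.71, adjusted p = 0.698). *Lats1* (ENSMUSG00000040021; chromosome 10, 7681214 to 7716460, plus strand) was below the filter, at 0.261, 0.322 and 0.204 FPKM in oEV-EMT and 0.224, 0.225 and 0.179 in oEV-ctrl, with overlapping groups.

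*Sav1* (ENSMUSG00000021067; chromosome 12, 69965012 to 69987002, minus strand) also missed the filter. It had 0.622, 0.599 and 0.666 FPKM in oEV-EMT and 1.66, 0.950 and 0.730 in oEV-ctrl. The oEV-EMT libraries were all lower than the lowest oEV-ctrl library, narrowly so at 0.666 against 0.730 FPKM, and oEV-ctrl 1 was the highest by far. Among the tested genes, 4.34% lay lower in oEV-EMT without overlap. The exact two-sided permutation test gave p = 0.1, and no arrangement of 3 against 3 can give less. When genes of low level were included, the log2 fold change was -0.35 with an unadjusted p of 0.123 and an adjusted p of 0.710 (limma). Exons of the gene *Atl1* on the opposite strand cover 25.4% of those of *Sav1*. Reads of the pair could not be told apart unless strand was recorded, which is not stated.

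*Nf2* (ENSMUSG00000009073; chromosome 11, 4765845 to 4849536, minus strand), the membrane-linked activator of LATS, was close to the typical gene. It had 3.76, 3.41 and 2.59 FPKM in oEV-EMT and 3.11, 2.24 and 3.03 in oEV-ctrl, with overlapping groups. The log2 fold change was 0.16 (95% interval -0.33 to 0.66, adjusted p = 0.755 from limma), or -0.01 relative to all genes.

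The angiomotins are junction proteins that bind YAP1 and activate LATS. *Amotl2* (ENSMUSG00000032531; chromosome 9, 102716672 to 102733418, plus strand) had 10.4, 7.53 and 4.66 FPKM in oEV-EMT and 4.36, 4.15 and 3.75 in oEV-ctrl. Every oEV-EMT library was above every oEV-ctrl library, narrowly so in oEV-EMT 3, and the spread was 2.87 FPKM in oEV-EMT against 0.311 in oEV-ctrl (SD, n = 3 each). The log2 fold change was 0.69 with a standard error of 0.27 and a 95% interval from 0.08 to 1.30, equal to a 1.61-fold higher value of FPKM + 1. The unadjusted p was 0.0295 and the adjusted p 0.272 (limma), and over the 15 alternatives the adjusted p lay between 0.0948 and 0.674. The unadjusted p was 0.05 or less in 7 of the 15. The call was lost without a filter, after upper quartile scaling and after median-of-ratios scaling, which gave a log2 fold change of 0.52 and an unadjusted limma value of 0.0602. It was also lost without any single library other than oEV-EMT 3, with limma p-values from 0.0524 to 0.0904 and log2 fold changes from 0.45 to 0.73. *Amotl2* is itself a known target of YAP1, as is *Lats2*, whose values did not move the same way.

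*Amot* (ENSMUSG00000041688; X chromosome, 145446425 to 145505181, minus strand) had 9.25, 3.45 and 0.195 FPKM in oEV-EMT and 5.41, 4.83 and 4.99 in oEV-ctrl. The oEV-ctrl libraries lay close together, whereas the oEV-EMT libraries lay above, below and far below them. The value in oEV-EMT 3 was 17.7 times lower than the lowest of the other libraries. Such a gap to the lowest other library, of more than 10 times, occurred in 12 tested genes in oEV-EMT 3, among them the inner cell mass factor *Sall4* at 0.804 FPKM, and in between 1 and 20 genes in the other libraries. The log2 fold change of *Amot* was -0.68 with a 95% interval from -2.49 to 1.13 (adjusted p = 0.699 from limma), and 0.15 without oEV-EMT 3, so its direction rests on that library. Without oEV-EMT 1 it was -1.40, with an unadjusted p of 0.0264 and an adjusted p of 0.231 from limma. The lowest value was in oEV-EMT 3 in 1 of the 7 tested Hippo genes, against 19.5% of all tested genes. By stretches of 50 bases, *Amot* shares 0% of its transcript sequence with other annotated genes. Since *Amot* is X-linked and pools may differ in their sexes, *Xist* is given beside it, with 5.61, 6.42 and 10.4 FPKM in oEV-EMT and 5.80, 4.18 and 21.6 in oEV-ctrl. The Y-linked *Eif2s3y* had 43.4, 28.5 and 19.8 FPKM in oEV-EMT and 30.9, 52.0 and 30.5 in oEV-ctrl, lowest in the library where *Amot* was lowest. The part of the sex makeup in the *Amot* values was not tested. *Amotl1* (ENSMUSG00000013076; chromosome 9, 14541966 to 14645056, minus strand) stayed between 0.0356 and 0.139 FPKM in all libraries.

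**Figure D2:**
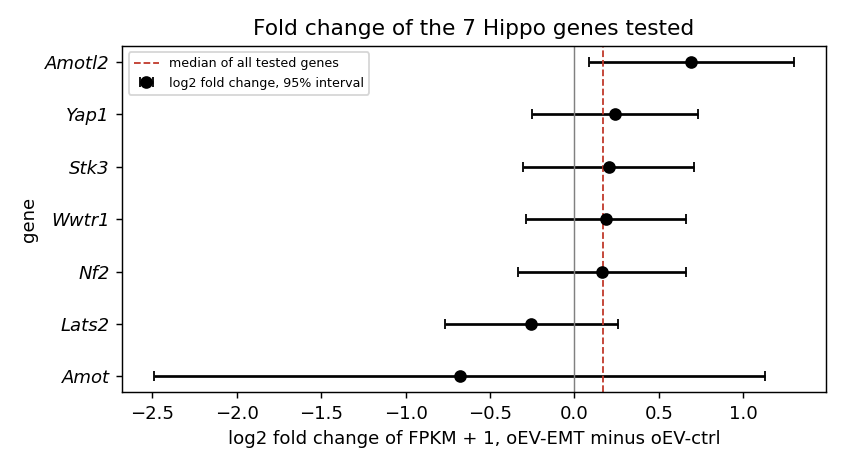
Log2 fold change of FPKM + 1 (oEV-EMT minus oEV-ctrl, horizontal axis) for the 7 genes tested, with 95% intervals from limma, a grey line at 0 and a dashed line at 0.17, the median of all tested genes. Only the interval of *Amotl2* does not reach 0, and that of *Amot* is the widest.

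The balance between related genes was compared within each library for 6 ratios. A plain ratio of FPKM does not depend on the scaling between libraries, whereas the tested log2 ratio of FPKM + 1 does in part, because of the added 1. In the oEV-ctrl libraries *Amot* slightly exceeded *Amotl2*, with FPKM ratios of 1.24, 1.17 and 1.33. In the oEV-EMT libraries *Amotl2* exceeded *Amot*, with ratios of *Amot* to *Amotl2* of 0.889, 0.458 and 0.0417. The order of *Amot* and *Amotl2* was thus inverted in each oEV-EMT library, narrowly so in oEV-EMT 1. *Amotl2* by itself already lay higher without overlap, as did 18.1% of all tested genes. No such share was computed for ratios. On the log2 scale of FPKM + 1 the ratio was -1.11 ± 1.06 in oEV-EMT and 0.26 ± 0.08 in oEV-ctrl (SD, n = 3 each), a difference of -1.37. The exact two-sided permutation test gave p = 0.1, the smallest possible, and p = 0.3 after Benjamini-Hochberg adjustment over the 6 ratios. Without oEV-EMT 3 the difference was -0.80. With 0.1 added in place of 1 it was -2.07.

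The ratio of *Amotl1* to *Amotl2* also did not overlap, at -2.91 ± 0.46 in oEV-EMT and -2.26 ± 0.05 in oEV-ctrl on the same scale (exact permutation test, p = 0.1, adjusted p = 0.3). As *Amotl1* is near 0, this ratio is set almost wholly by *Amotl2*. The other ratios overlapped between the groups. That of *Yap1* to *Wwtr1* was -0.18 ± 0.44 in oEV-EMT and -0.23 ± 0.10 in oEV-ctrl (exact permutation test, p = 0.9), that of *Lats1* to *Lats2* -1.91 ± 0.31 and -2.22 ± 0.14 (p = 0.3 from the exact test), and that of *Stk3* to *Stk4* -0.06 ± 0.33 and -0.25 ± 0.76 (exact test, p = 0.8). For *Amot* to *Amotl1* they were 1.80 ± 1.52 and 2.51 ± 0.03 (exact test, p = 0.7). With 0.1 added in place of 1, the difference moved from -0.71 to -1.48 for *Amot* to *Amotl1* and from 0.32 to 0.53 for *Lats1* to *Lats2*.

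**Figure D3:**
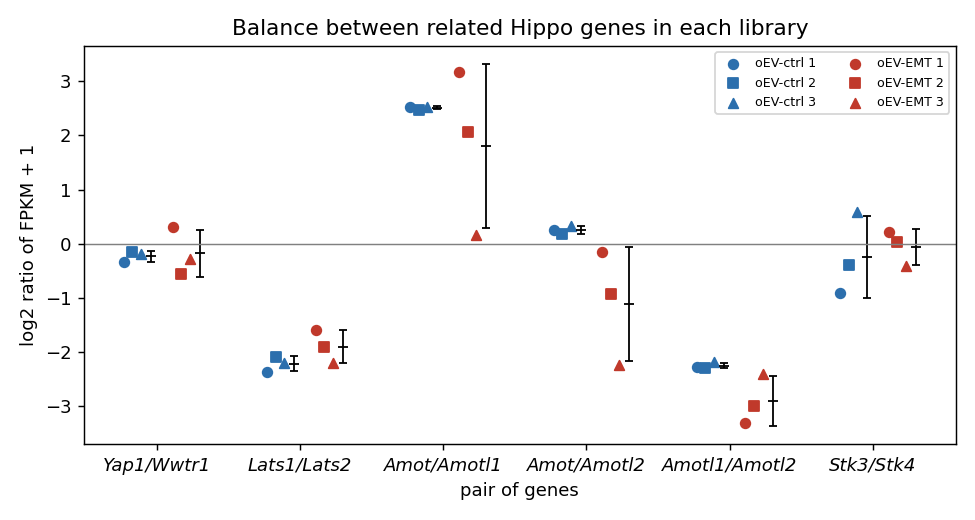
Log2 ratio of FPKM + 1 between related Hippo genes (vertical axis) in each library for 6 pairs, with oEV-ctrl in blue, oEV-EMT in red, a symbol for each library number and black bars for mean ± SD (n = 3). For *Amot* to *Amotl2* the oEV-ctrl libraries lie above 0 and the oEV-EMT libraries below.

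In several of these genes library oEV-EMT 1 stood apart. It held the highest value in 5 of the 7 tested genes, *Yap1*, *Stk3*, *Nf2*, *Amot* and *Amotl2*, and the lowest in *Lats2*. Over all tested genes the highest value was in oEV-EMT 1 in 37.4%. The genes whose values most resembled those of *Yap1* over the 6 libraries, each centred on its median, were *Arglu1* (Pearson r = 0.990), *Gm22614* (r = 0.988) and *Ccdc163* (r = 0.980). For *Wwtr1* they were *Bag1* (r = 0.999), *Gna13* (r = 0.988) and *Gm7332* (r = 0.987). With 6 libraries such values are common, since 76 genes reached 0.9 with *Yap1* and 257 with *Wwtr1* among the 11643 annotated genes compared.

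The rest of the pathway was taken from a list of 40 genes, of which 39 were matched and 32 tested. Of the 32, 1 was called higher at an unadjusted p of 0.05 or less and 0 lower (limma), or 3.13% against 15.4% of all tested genes, and 0 after adjustment. After median-of-ratios scaling the direction of the calls turned, with 0 higher and 2 lower. Their log2 fold changes had a median of -0.0055, or -0.18 relative to all genes. Measured against the all-gene median of 0.17, 11 of them were above and 21 under. The gene called was *Wtip*, an AJUBA-family protein that restrains LATS, at 2.91, 1.87 and 2.30 FPKM in oEV-EMT and 1.73, 1.10 and 1.17 in oEV-ctrl. Its log2 fold change was 0.52 (95% interval 0.04 to 1.01, adjusted p = 0.293), and its unadjusted p was 0.05 or less in 9 of the 15 alternatives. Its relatives *Ajuba* and *Limd1*, also chosen after their values were seen, had log2 fold changes of -0.02 and 0.77, both with overlapping groups. Chosen after their values were seen, *Taok1* and *Strn3* were the tested genes of the list in which oEV-EMT was lower without overlap, and *Wwc1*, *Wtip* and *Sike1* those in which it was higher. Without overlap, 3 of the 32 thus lay higher and 2 lower, against 18.1% and 4.34% of all tested genes.

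The partners next to the members were not separated between the groups. *Stk4* (MST1), the relative of *Stk3*, had a log2 fold change of 0.02 (95% interval -0.62 to 0.65, adjusted p = 0.983 from limma). The LATS cofactors *Mob1a* and *Mob1b* had -0.06 and -0.22. Of the TEAD factors, *Tead4*, the one required for trophectoderm, had the highest level, at 12.9, 11.4 and 8.40 FPKM in oEV-EMT and 9.64, 7.61 and 10.2 in oEV-ctrl. Its log2 fold change was 0.22 (95% interval -0.30 to 0.74, adjusted p = 0.684). *Tead1* had -0.40, with 7.35, 2.29 and 3.54 FPKM against 5.95, 6.16 and 4.76. Single libraries moved the *Tead1* value, which was -0.77 without oEV-EMT 1 (limma, unadjusted p = 0.0100, adjusted p = 0.192) and -0.098 without oEV-EMT 2, and it was -0.74 with library weights (limma, unadjusted p = 0.0145). *Tead2* had 0.16, and 0.56 without oEV-EMT 3 (limma, unadjusted p = 0.0330, adjusted p = 0.269). *Tead3* did not exceed 0.467 FPKM in any library and was not tested.

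A list of 22 known targets of YAP1 gave 7 tested genes, since 12 of the 22 were below 1 FPKM in every library. The list includes *Amotl2* and *Lats2*, so that 5 of the 7 are independent of the members. Of the 7, 2 were called higher at an unadjusted p of 0.05 or less, *Ccn1* and *Amotl2*, and 0 lower, with 0 called after adjustment. Over all tested genes 12.8% were called higher and 2.55% lower. The count was 1 of 7 after median-of-ratios scaling and 1 of 5 without the Hippo members of the list. The median of the 7 fold changes was 0.31, or 0.14 relative to all genes. *Ccn1* (CYR61, a secreted matrix protein) had 6.91, 5.75 and 4.14 FPKM in oEV-EMT and 2.21, 2.06 and 3.12 in oEV-ctrl, without overlap. Its log2 fold change was 0.92 (95% interval 0.38 to 1.46), with an unadjusted p of 0.00352 and an adjusted p of 0.164 (limma). In each of the 15 alternatives the unadjusted p was at most 0.0186, and the adjusted p lay between 0.0607 and 0.609. *Ccn2* (CTGF), the other standard readout, missed the filter, at 2.28, 0.892 and 0.872 FPKM in oEV-EMT and 0.901, 0.884 and 1.05 in oEV-ctrl, with overlapping groups. In 5 of the 7 tested targets oEV-EMT 1 held the highest value, against 37.4% of all tested genes. Without that library the median of the list relative to all genes was 0.00025 in place of 0.14.

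**Figure D4:**
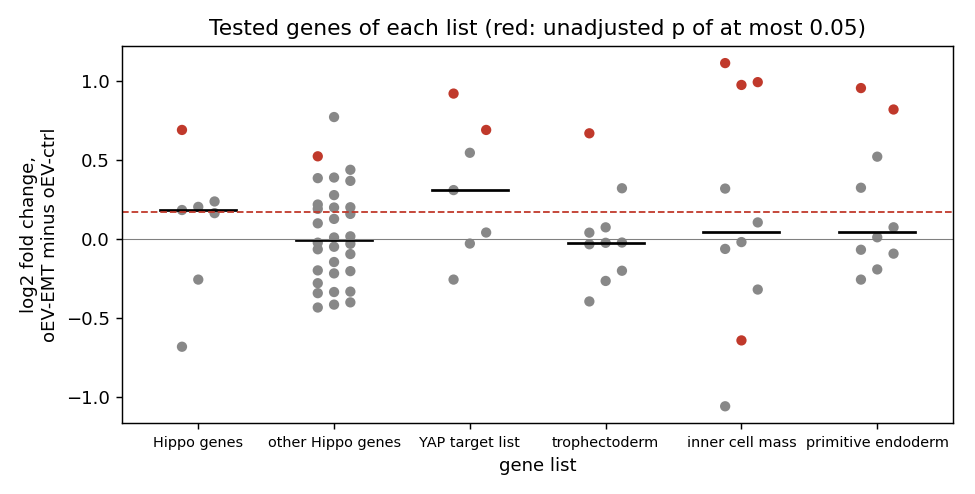
Log2 fold change (oEV-EMT minus oEV-ctrl, vertical axis) of each tested gene of 6 lists, with black bars for list medians, a dashed line at 0.17 for the median of all tested genes and red points for an unadjusted p of at most 0.05 (limma). The single red point among the 7 Hippo genes is *Amotl2*, and the upper red point of the YAP target list is *Ccn1*.

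The lineage genes that the pathway sets in the embryo had medians below that of all genes. Trophectoderm was at -0.19 relative to it, with 2 tested genes above the all-gene median and 8 below. The inner cell mass was at -0.13, with 4 above and 6 below and log2 fold changes from -1.06 to 1.11. Its summed FPKM did not overlap between the groups, at 9992 to 12089 in oEV-EMT and 15165 to 20280 in oEV-ctrl. Such a sum is weighted towards the most abundant genes. Gene by gene, 3 of the 10 lay higher in oEV-EMT without overlap and 1 lower, against 18.1% and 4.34% of all tested genes. *Cdx2*, which TEAD4 and YAP1 switch on in trophectoderm, had 15.2, 10.1 and 12.97 FPKM in oEV-EMT and 14.4, 10.8 and 10.9 in oEV-ctrl. Its log2 fold change was 0.07 (95% interval -0.44 to 0.59, adjusted p = 0.897 from limma). *Gata3*, the parallel target, had a log2 fold change of -0.26 (95% interval -0.95 to 0.43), and *Sox2*, which nuclear YAP1 keeps off in outer cells, -0.32 (95% interval -0.97 to 0.33). Both values stayed below 0 in every alternative, but their size changed with the library left out. Without oEV-EMT 1 they were -0.65 for *Gata3* and -0.64 for *Sox2* (limma, unadjusted p = 0.0138 and 0.0173, adjusted p = 0.204 and 0.211). *Gata3* was at -0.12 without oEV-EMT 2, -0.024 without oEV-EMT 3 and -0.16 without oEV-ctrl 1. *Sox2* was at -0.14, -0.17 and -0.17 without the same libraries, and at -0.50 with library weights (limma, unadjusted p = 0.0441). Of 10 tested trophectoderm genes 1 was called higher at an unadjusted p of 0.05 or less, *Elf5*, and 0 lower, against 12.8% and 2.55% of all tested genes. After median-of-ratios scaling this was 0 higher and 1 lower. Of 10 inner cell mass genes 3 were called higher and 1 lower, *Nanog*, *Pou5f1*, *Fgf4* and *Dppa5a*, with log2 fold changes of 1.11, 0.97, 0.99 and -0.64 and adjusted p-values between 0.175 and 0.208. After median-of-ratios scaling the counts were also 3 higher and 1 lower. In each of the 15 alternatives the unadjusted p from limma was at most 0.0281 for *Nanog* and 0.0295 for *Pou5f1*. Their adjusted p lay between 0.109 and 0.652 and between 0.0730 and 0.625. The log2 fold changes lay between 0.71 and 1.44 for *Nanog* and between 0.73 and 1.18 for *Pou5f1*. Of 10 primitive endoderm genes 2 were called higher, *Gata4* and *Sox17*, and 0 lower, or 1 higher after median-of-ratios scaling. *Elf5*, *Fgf4*, *Dppa5a*, *Gata4* and *Sox17* are outside the fixed readouts and were chosen after their values were seen. No test was made over any list.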

How the data were processed

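RNA of 6 pools of 10 blastocysts was sequenced after poly(A) selection. The authors aligned the reads to mm10 and assembled them with StringTie, per the labels, while the aligner is not given in the sources used here. They deposited 1 value per gene and library, which the methods call TPM. Because the sums exceed 1000000 and differ between libraries, the deposited values were taken as FPKM. Depth cannot be read from them, and no counting interval was computed. Columns left unused numbered 0. Symbols came from GENCODE M21, for 55141 of 55487 Ensembl identifiers. Genes with at least 1 FPKM in at least 3 libraries were fitted as log2(FPKM + 1) with limma 3.58.1 in R 4.3.3 (trended, robust), without scaling between libraries, with Benjamini-Hochberg adjustment over 11924 genes. The fold change of low genes is understated on this scale. The fit was tested on simulated data. The thresholds were an adjusted p of 0.05 and a log2 fold change of 1, as in the study's methods.

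The members and gene lists were chosen with earlier results of these data known, so no list was tested. Named were all members, fixed partners and readouts (*Stk4*, *Mob1a*, *Mob1b*, the TEAD genes, *Ccn1*, *Ccn2*, *Cdx2*, *Gata3*, *Sox2*, *Pou5f1*, *Nanog*), up to 5 further genes per pathway or target list by the smallest unadjusted p up to 0.05, and the 3 genes most like *Yap1* and *Wwtr1*. Exact permutation tests compared ratios. Alternatives covered scaling, pseudocount (0.1), filter (0.1 FPKM or none), variance model, library weights, the replicate number as a block, and each library left out. Sequences are from RefSeq, GRCm38.p6. Python 3.11.15 and matplotlib 3.10.9 served for the plots.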

Additional observations from a re-analysis of the deposited data

How the results depend on the processing

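The number of genes past both thresholds, 0 in the values as deposited, was 104 with library weights, 21 with the replicate block and, when single libraries were left out, ranged from 0 to 17 (17 without oEV-ctrl 3, 4 without oEV-EMT 1 and 1 without oEV-EMT 3). With the replicate block 0 Hippo genes were among those called, and the number of Hippo genes at an unadjusted p of at most 0.05 was 1, as without it. The correlations of the deviations of same-numbered libraries were 0.12, -0.04 and 0.04, so the numbers were not taken to pair the libraries. The Hippo count of 1 became 0 after median-of-ratios scaling, after upper quartile scaling and without a filter, and ranged from 0 to 1 over the fits that leave out a library. It was 0 without oEV-EMT 2, oEV-ctrl 1, oEV-ctrl 2 or oEV-ctrl 3, and without oEV-EMT 1 the gene called was *Amot*, in place of *Amotl2*. The median of the YAP target list relative to all genes ranged from 0.00025 to 0.28 in the same fits, lowest without oEV-EMT 1. In the same fits that of the other Hippo genes ranged from -0.33 to -0.084, also lowest without oEV-EMT 1, and that of the 7 Hippo genes from -0.046 to 0.059.

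Directions that turned belonged to genes or ratios with overlapping groups. For the fits that leave out a library this is so by construction, since groups without overlap then keep their direction. After upper quartile scaling the log2 fold change was -0.055 for *Wwtr1*, -0.025 for *Stk3*, -0.036 for *Nf2*, -0.22 for *Stk4*, -0.038 for *Tead2*, -0.023 for *Tead4* and -0.17 for *Cdx2*. After median-of-ratios scaling it was -0.16 for *Stk4* and -0.11 for *Cdx2*, with library weights -0.044 for *Cdx2*, and after scaling to a total of 1000000 it was 0.017 for *Mob1a*. Over the fits without 1 library it fell between -1.40 and 0.15 for *Amot*, between -0.27 and 0.25 for *Stk4*, between -0.23 and 0.026 for *Mob1a*, between -0.050 and 0.56 for *Tead2* and between -0.050 and 0.22 for *Cdx2*. The difference of the log2 ratios lay between -0.19 and 0.24 for *Yap1* to *Wwtr1*, between -1.40 and 0.11 for *Amot* to *Amotl1* and between -0.15 and 0.60 for *Stk3* to *Stk4*. For *Amot* to *Amotl2* it ranged from -1.85 to -0.80 and was -2.07 with a pseudocount of 0.1. The causes were not tested. The unknown read totals and 3 libraries per group limit what can be called, most of all for *Lats1*, *Sav1* and *Amotl1*.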
